A study of Mus musculus with 12 samples.

Results

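The genes described here encode the proteasome and its close partners in mouse liver, and the measurement is H3K27ac, an acetyl mark on histone H3 that is found at active promoters and enhancers. The members were the regions of the authors' deposited table whose gene name starts with Psma, Psmb, Psmc, Psmd, Psme or Psmg followed by a digit. They came to 68 regions and 35 genes, of 36387 regions and 11240 gene names in all. By role, 13 genes encode the core particle, 7 the base and 7 the lid of the regulatory particle, 4 are activators, and 2 are assembly chaperones. The other 2, Psmc3ip and Psme3ip1, carry the name stem but are not proteasome subunits. Psmc3ip encodes a meiotic recombination factor and Psme3ip1 a protein that binds an activator. Another 14 protein-coding genes with such names in RefSeq had no region among those used here. Psmd2 and Psmg1, which lie on chromosome 16, are among those 14, as are Psma4, Psma7, Psmb10, Psmc5 and Psmd3. Each region carries the name of its closest gene, so a gene without a named region does not necessarily lack the mark.

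The Cox10-/- group held 3 H3K27ac libraries of regenerating liver from mice with a floxed Cox10 allele that received Cre recombinase in an AAV8 vector. The wild-type group held 3 H3K27ac libraries of regenerating liver from mice that carried the same floxed allele and received GFP in the same vector. Per the labels' protocols, both groups had a 70% partial hepatectomy 4 weeks after the virus and were sampled on day 2 after it. AAV8 infects mainly hepatocytes, so the other cells of a Cox10-/- liver may keep the gene, and the tissue was analysed whole. Age, sex and strain are not given in the sources used here, and the labels number the replicates without saying that each came from its own animal, so the p-values measure only the spread between libraries, which may be technical. That spread was little more than read sampling would give. The chi-square of reads per degree of freedom was 1.06 to 1.19 between libraries of the same genotype, against 10.2 to 10.6 between genotypes. Cox10 encodes an enzyme of heme A synthesis, which the last complex of the respiratory chain needs.

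The proteasome degrades proteins that carry ubiquitin chains. Its core particle is a barrel of stacked rings, in which alpha subunits guard the entrance and 3 kinds of beta subunit cut peptide bonds, and a regulatory particle, made of a base with a ring of ATPases and a lid that removes ubiquitin, unfolds substrates and feeds them into the barrel. The subunit genes are active in every cell and are scattered over the genome, and in mammals the transcription factor Nfe2l1 raises them together, through antioxidant response elements, when proteasome activity is short. In liver the proteasome serves protein turnover, and immune signals exchange catalytic subunits for immunoproteasome forms such as Psmb9.

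The starts of 4 genes are shown because the results below turn on them: Psmb5 and Psmd8, whose promoter signal differed least between genotypes, and Psmb6 and its immunoproteasome counterpart Psmb9. Each sequence, from RefSeq on GRCm38.p6, runs 5′ to 3′ from 250 bases before to 50 bases after the annotated start, on the gene's own strand. Capitals mark a match, on either strand, to the antioxidant response element core TGACNNNGC, the CCAAT box or the TATA box TATAAA. The windows lie at chr14:54617946-54618245 on the minus strand for Psmb5, chr7:29180624-29180923 on the minus strand for Psmd8, chr11:70525107-70525406 on the plus strand for Psmb6 and chr17:34187281-34187580 on the minus strand for Psmb9.
Psmb5: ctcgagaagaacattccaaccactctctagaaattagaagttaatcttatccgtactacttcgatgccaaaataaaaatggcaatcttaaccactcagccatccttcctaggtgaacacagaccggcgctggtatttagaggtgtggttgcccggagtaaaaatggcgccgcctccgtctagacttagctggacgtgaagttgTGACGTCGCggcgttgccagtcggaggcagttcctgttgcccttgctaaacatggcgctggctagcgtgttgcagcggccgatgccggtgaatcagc
Psmd8: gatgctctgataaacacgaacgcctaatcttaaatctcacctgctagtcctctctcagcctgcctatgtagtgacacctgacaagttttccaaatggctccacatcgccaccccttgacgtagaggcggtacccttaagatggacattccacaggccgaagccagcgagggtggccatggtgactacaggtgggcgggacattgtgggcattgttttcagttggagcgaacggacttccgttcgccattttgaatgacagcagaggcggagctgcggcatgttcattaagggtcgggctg
Psmb6: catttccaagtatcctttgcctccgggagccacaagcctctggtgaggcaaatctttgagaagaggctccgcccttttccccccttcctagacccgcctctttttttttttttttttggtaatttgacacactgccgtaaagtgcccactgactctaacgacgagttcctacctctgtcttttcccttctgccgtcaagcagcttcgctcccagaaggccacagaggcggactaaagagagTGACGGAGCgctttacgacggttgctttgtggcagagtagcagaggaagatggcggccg
Psmb9: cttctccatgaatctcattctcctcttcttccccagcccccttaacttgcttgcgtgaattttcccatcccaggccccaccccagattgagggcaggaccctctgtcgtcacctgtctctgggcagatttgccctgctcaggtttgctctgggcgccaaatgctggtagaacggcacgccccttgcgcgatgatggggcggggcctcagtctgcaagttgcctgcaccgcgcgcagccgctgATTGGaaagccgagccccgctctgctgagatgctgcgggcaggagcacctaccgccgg
The element core TGACNNNGC begins 47 bases before the start of Psmb5 and 9 bases before the start of Psmb6. The Psmd8 window holds none of the 3 motifs, and that of Psmb9 holds a CCAAT box that begins 8 bases before the start. The window of Psmb5 lies inside its H3K27ac region, whereas the regions of Psmd8 and Psmb6 lie outside their windows, downstream and upstream of the start.

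Windows of this kind were matched by symbol for 30 of the 35 genes, Psmb1, Psmb2, Psmb7, Psmc3 and Psmd7 being the others. The element core occurred in 5 of 30 (16.7%), those of Psmb5, Psmb6, Psmc6, Psmd12 and Psme4, against 14.5% of 7469 promoter genes in the table and 12.4% of all 32851 windows. A CCAAT box occurred in 11 of 30 (36.7%), against 37.9% and 37.4%. TATAAA occurred in 3 of 30 (10.0%), those of Psmb4, Psmd1 and Psmd6, against 6.96% and 13.6%. The pair of TATAAA matches in Psmb4 overlap on opposite strands. Each share for the 30 genes thus lay near that of promoters at large. Psmc3ip and Psme3ip1, which are not proteasome subunits, are among the 30, and the window of each holds a CCAAT box. The GC content of the 30 windows had a median of 59.2% and ran between 47.0% and 66.3%, against a median of 61.7% in the promoter genes.

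Reads in regions numbered 3282878 to 3385453 in Cox10-/- libraries and 3897454 to 4187377 in wild-type libraries. Each deposited value is a whole number of reads divided by a size factor of the library, 1.18 to 1.32 in Cox10-/- and 0.730 to 0.782 in wild type. The size of every difference at a region rests on those factors, and at many promoters so do its direction and its call. Differences not called centred, other than ratios within a library, are on this deposited scale. The values are called normalised reads here. Cox10 itself checks no label by this mark: its only region, in intron 5 of 6 at chr11:63977336-63977787, had 60.3, 46.0 and 65.9 normalised reads in Cox10-/- against 14.6, 17.8 and 12.8 in wild type (log2 1.86, SE 0.24, adjusted p 2.0e-12). The tissue carried hepatocyte signal, with promoter regions at 9 of 10 listed hepatocyte genes and a summed level of 1608 to 1871 normalised reads in Cox10-/- against 5448 to 5645 in wild type. All 9 were lower in Cox10-/-, with a median log2 difference of -1.67. Of macrophage and Kupffer cell genes 3 of 10 had a promoter region, and their summed level was 408 to 455 normalised reads in Cox10-/- against 366 to 404 in wild type. Over all regions of those genes the order was reversed, at 2129 to 2451 normalised reads in Cox10-/- against 3262 to 3442 in wild type. At the promoter Cd14 was higher, Cx3cr1 lower and Cd68 not called, and no region was listed for Adgre1, Clec4f, Csf1r, Lyz2, Marco, Timd4 or Vsig4. The part of these cells in the results below was not tested, and in whole tissue fewer cells of a type and less mark per cell cannot be told apart. No promoter region was listed for the 8 endothelial or the 7 stellate cell genes, and 1 each for lymphocyte genes (Lck, of 11) and biliary genes (Sox9, of 6).

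On the deposited scale proteasome promoters carried less H3K27ac in the Cox10-/- livers, with a median difference near that of promoters in general. By limma on the log2 scale, with p-values adjusted over all 36387 regions and called under 0.05, 33 of the 35 genes were lower and 0 were higher, where 93.8% of all 9663 promoter genes were lower and 0.807% higher. A gene is represented by its region within 1 kb of a start with the highest mean signal. The median log2 difference, Cox10-/- over wild type, was -0.71, or 1.64-fold lower, with quartiles of -0.85 and -0.56. Over all promoter genes it was -0.82, or 1.76-fold lower, with quartiles of -1.10 and -0.61. No proteasome promoter was higher at an unadjusted p under 0.05. Run with the same deposited size factors, edgeR and DESeq2 each also called 33 lower and 0 higher, which does not test those factors. With their own scaling they gave the different counts set beside the centred scale below. The Cox10-/- and wild-type libraries did not overlap at 33 of the 35 promoters, against 93.9% of promoter genes.

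**Figure D1:**
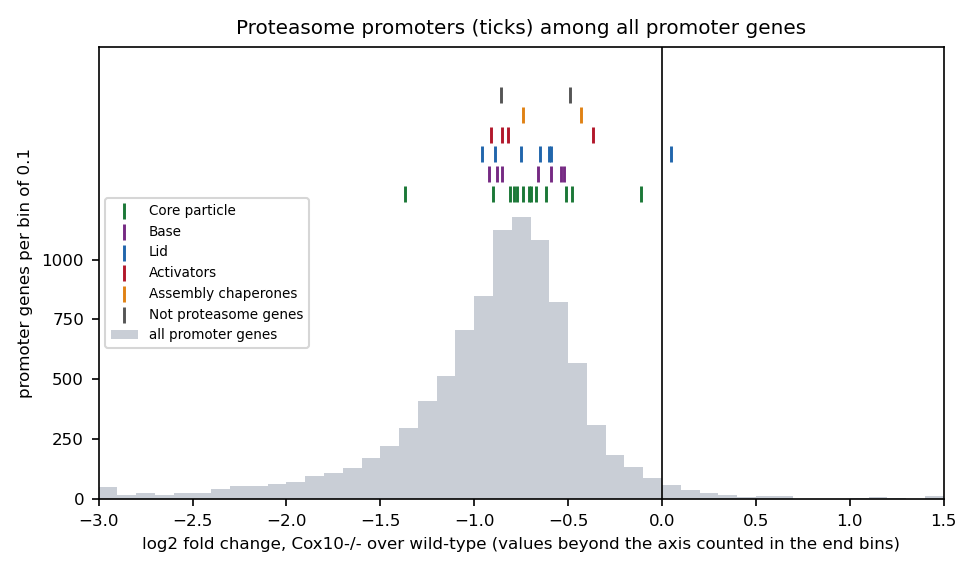
Distribution of log2 differences in H3K27ac, Cox10-/- over wild type, for the promoters of 9663 genes (grey bars, genes per bin of 0.1), with the 35 proteasome-named genes as ticks in rows by role. The ticks sit inside the main body of the distribution, 32 of them between -1 and -0.3, with Psmb6 at -1.37 to the left and Psmb5 at -0.11 and Psmd8 at 0.05 to the right.

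The members varied less among themselves than promoter genes at large. The SD of their log2 differences was 0.25, against 0.53 over all promoter genes. Of the 35, 32 lay between -1 and -0.3, where 61.5% of promoter genes did. This band was chosen with the values of the members known, so these shares are not a test. The 3 outside this band were Psmb6, Psmb5 and Psmd8. A value as low as that of Psmb6 was found in 12.9% of promoter genes, one as high as that of Psmb5 in 3.19% and one as high as that of Psmd8 in 1.79%. Per length, the median level of the members was 191 normalised reads per kb in Cox10-/-, with a range of 97.8 to 272, and 307 in wild type, with a range of 211 to 470.0. Over all promoter genes the median level was 153 normalised reads per kb in Cox10-/- and 278 in wild type. Their wild-type levels ran more widely, from 9.16 to 655, and the spread was not compared among promoter genes of like level.

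Measured relative to the typical promoter, more of these genes were higher in Cox10-/- than in wild type than were lower. For this comparison each library was centred on its median promoter gene, which moves every log2 difference up by 0.87 and leaves the median of all promoter genes at 0.05. On that centred scale 14 of 35 genes were higher and 1, Psmb6, was lower, where 27.5% of promoter genes were higher and 24.4% lower; the median of the members was 0.15. The 14 were Psma5, Psmb3, Psmb4 and Psmb5 of the core, Psmc1, Psmc2, Psmc4 and Psmd1 of the base, Psmd8, Psmd11 and Psmd12 of the lid, the activator gene Psme3, the chaperone gene Psmg4, and Psme3ip1. The split depended on the centre: 26 were higher and 1 lower with the median of all regions as the centre, 26 and 1 with edgeR's TMM scaling, and 23 and 0 with DESeq2's own size factors. Psma2, Psma3, Psmb1, Psmb2, Psmb7, Psmb9, Psmd5, Psmd7 and Psmd14, not called on the centred scale, were called higher under each of these alternatives. Psma1 and Psme1 were called higher with the median of all regions and with TMM. Shares of all promoter genes under these alternatives are not given here. The counts of 26 and 23 therefore cannot be read against 27.5%.

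**Figure D2:**
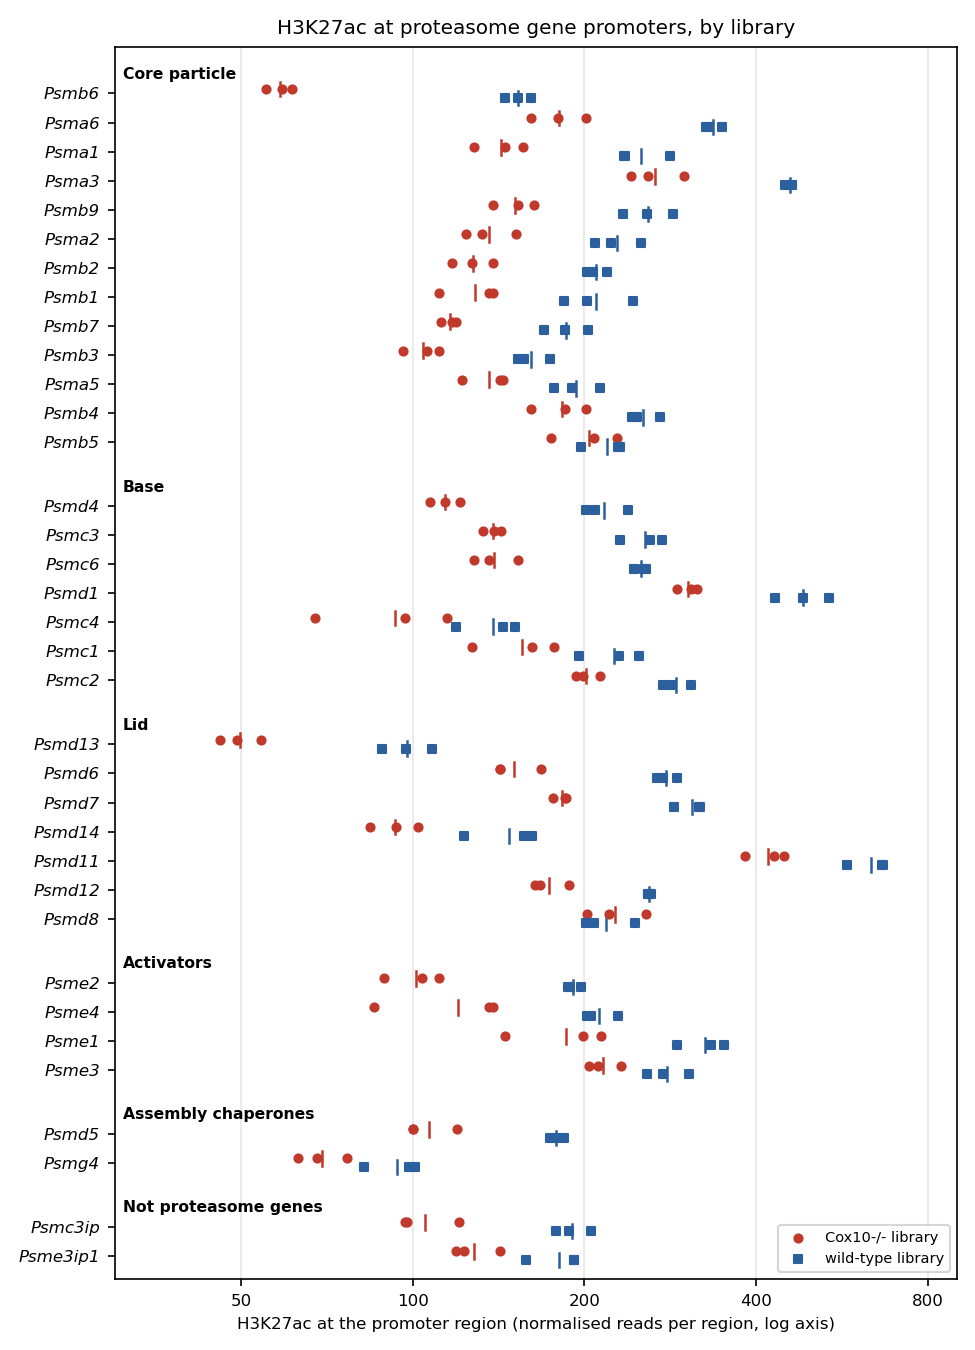
H3K27ac at the promoter region of each of the 35 genes, in normalised reads per region on a log axis, by role. Red circles are the 3 Cox10-/- libraries, blue squares the 3 wild-type libraries and vertical ticks their means; the genotypes overlap only at Psmb5 and Psmd8.

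In the alpha ring, whose subunits form the gate of the core particle, all 5 promoters were lower in Cox10-/-, with log2 differences between -0.90 and -0.51 and a median of -0.79. Psma6 stood at the low end. Its region over the start, at chr12:55398822-55399757, had 201, 180.0 and 161 normalised reads in Cox10-/- against 331, 349 and 327 in wild type. The difference was 1.86-fold (log2 -0.90, SE 0.10, adjusted p 1.8e-16), and the lowest wild-type library lay far above the highest Cox10-/- library. Psma5 stood at the high end, with 144, 142 and 122 normalised reads in Cox10-/- and 190.2, 177 and 213 in wild type at chr3:108257248-108257926, a log2 difference of -0.51 (SE 0.11, adjusted p 1.6e-05). Psma5 was the only alpha gene higher on the centred scale, by 0.36 (adjusted p 0.00092). Psma1, Psma2 and Psma3, which complete the alpha genes measured, lay between at -0.81, -0.74 and -0.79. Psma3 had one of the strongest promoters per length, at 272 normalised reads per kb in Cox10-/- and 468 in wild type, where it stood above 99.0% of promoter genes.

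In the beta ring, the 4 structural subunits Psmb1, Psmb2, Psmb3 and Psmb4, which hold the ring together without cutting, were all lower in Cox10-/-, between -0.71 and -0.48. Psmb2, at chr4:126677691-126678360, had 127, 138 and 117 normalised reads in Cox10-/- against 219.5, 207 and 202 in wild type, a log2 difference of -0.71 (SE 0.11, adjusted p 2.2e-09). Psmb4, at chr3:94886388-94887343, had 201, 185 and 161 normalised reads in Cox10-/- against 271, 242 and 247 in wild type, a log2 difference of -0.48 (SE 0.10, adjusted p 8.3e-06). Neither gene had a library of one genotype inside the range of the other. Centred, Psmb4 was higher by 0.39 (adjusted p 4.2e-05) and Psmb3 by 0.24 (adjusted p 0.042), whereas Psmb1 at 0.17 and Psmb2 at 0.15 were not called. The centred call of Psmb3 was lost, at values of 0.21 to 0.26, when any library other than wild-type replicate 2 was left out, and its value was 0.04 (adjusted p 0.70) when its promoter regions were averaged.

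The 3 catalytic subunits of the constitutive proteasome were the most unlike one another. Psmb5, which carries the chymotrypsin-like activity, was not called on the deposited scale. Its region over the start, at chr14:54617210-54618249, had 208, 228 and 175 normalised reads in Cox10-/- against 197, 229 and 231 in wild type. The genotypes overlapped, and the log2 difference was -0.11 (SE 0.10, adjusted p 0.31). Centred, Psmb5 was higher by 0.76 (adjusted p 1.7e-12). In wild type its level of 211 normalised reads per kb was the lowest of the 35 promoters and lay above only 12.8% of promoter genes, and in Cox10-/- the level was 196 per kb.

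Psmb6, which carries the caspase-like activity, was the lowest of the 35. Its strongest region lay 359 to 956 bases upstream of the start, at chr11:70524401-70524998, with 55.2, 58.9 and 61.4 normalised reads in Cox10-/- against 153, 145 and 161 in wild type. Every wild-type library was above every Cox10-/- library, and the difference was 2.59-fold (log2 -1.37, SE 0.14, adjusted p 4.7e-19; centred -0.51, adjusted p 0.00030). The centred call was lost when the promoter regions of each gene were averaged (-0.26, adjusted p 0.072) and with DESeq2's own size factors (-0.33, adjusted p 0.081). A weaker region just downstream of the start, at chr11:70525411-70525703, had 34.8, 35.5 and 40.9 normalised reads in Cox10-/- and 62.5, 53.4 and 62.6 in wild type, a log2 difference of -0.67 (SE 0.19, adjusted p 0.00059).

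Psmb7, which carries the trypsin-like activity, lay near the middle of the members. Its promoter at chr2:38643310-38643940 had 117, 119 and 112 normalised reads in Cox10-/- against 185, 169.8 and 203 in wild type, with no overlap, and a log2 difference of -0.67 (SE 0.12, adjusted p 4.8e-08). Centred, its 0.20 was not called (adjusted p 0.086).

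Psmb9, the immunoproteasome subunit that takes the place of Psmb6, was lower as well. The region upstream of its start, at chr17:34187544-34188514, had 163, 153 and 138 normalised reads in Cox10-/- against 286, 234 and 257 in wild type, a log2 difference of -0.77 (SE 0.11, adjusted p 1.4e-11) without overlap. This region lies on the side of Tap1, a peptide transporter gene that starts 226 bases away on the opposite strand, so the signal cannot be assigned to either gene. Centred, this region was not called at 0.10 (adjusted p 0.34), whereas the region inside Psmb9, described with the sides of the start below, was lower at -0.54 (adjusted p 0.0014).

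Set against each other within a library, which removes any scaling, the log2 ratio of Psmb9 to Psmb6 was 1.55, 1.37 and 1.16 in Cox10-/- and 0.90, 0.69 and 0.67 in wild type. The means were 1.36 ± 0.20 in Cox10-/- and 0.75 ± 0.13 in wild type (SD, n = 3 each), and the difference of 0.60 had the smallest p that 3 against 3 libraries allow, 0.10 by a two-sided exact permutation test. The sign turned with the region. In the regions downstream of the starts the ratio was 0.41, 0.21 and -0.32 in Cox10-/- and 0.97, 0.95 and 0.59 in wild type, a difference of -0.74 with an exact p of 0.10, an alternative chosen after seeing the data. Of the 2 ratios tested, the other, of Psme1, part of the activator that immune signals induce, to Psme3, part of the nuclear activator, was 0.07, -0.22 and -0.54 in Cox10-/- and 0.27, 0.44 and -0.07 in wild type. The genotypes overlapped, with a difference of -0.45 and an exact p of 0.20; with Benjamini-Hochberg adjustment over 2 tests neither ratio passes 0.05, which 3 against 3 cannot reach.

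The base of the regulatory particle binds and unfolds substrates, and all 7 of its promoters were lower in Cox10-/-, between -0.92 and -0.52 with a median of -0.66. Among the 5 ATPase genes, Psmc3 was the lowest, with 139, 143 and 133 normalised reads in Cox10-/- against 231, 260.2 and 274 in wild type at chr2:91054067-91054811 (log2 -0.88, SE 0.11, adjusted p 6.3e-14). Psmc2 was the highest, with 213, 193 and 199 normalised reads in Cox10-/- against 275, 284 and 308 in wild type at chr5:21786283-21787381 (log2 -0.52, SE 0.099, adjusted p 6.2e-07). Neither overlapped between genotypes, and Psmc2 was higher on the centred scale by 0.35 (adjusted p 0.00010) while Psmc3 was at -0.01. The other ATPase genes Psmc1, Psmc4 and Psmc6 were at -0.54, -0.59 and -0.85. Psmc4 was the least steady of them: its centred 0.28 (adjusted p 0.041) was no longer called when any of 4 libraries was left out, down to 0.13 without Cox10-/- replicate 2.

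Psmd4, the base subunit that receives ubiquitin chains, had 121, 107 and 114 normalised reads in Cox10-/- against 209, 238 and 201 in wild type at chr3:95041861-95042574 (log2 -0.92, SE 0.11, adjusted p 1.6e-13). Psmd1, the large scaffold of the base, had 315, 291 and 307 normalised reads in Cox10-/- against 536, 431 and 483 in wild type at chr1:86064387-86065771 (log2 -0.66, SE 0.087, adjusted p 2.0e-12). Both genes separated the genotypes in every library. Psmd1 was higher on the centred scale by 0.20 (adjusted p 0.0051), a call lost without Cox10-/- replicate 3 (0.15, adjusted p 0.068) and without wild-type replicate 2 (0.13, adjusted p 0.11), and Psmd4 was not called at -0.05.

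The lid removes ubiquitin from the substrate, and 6 of its 7 promoters were lower in Cox10-/-, with a median of -0.65. Psmd8, a lid subunit whose yeast counterpart is the last to join the lid, was the exception and the highest of the 35. Its region downstream of the start, at chr7:29179569-29180491, had 256, 221 and 202 normalised reads in Cox10-/- against 208, 201 and 245 in wild type. The genotypes overlapped across almost their whole range, and the log2 difference of 0.05 (SE 0.10, adjusted p 0.63) changed sign without Cox10-/- replicate 1, at -0.04, and without wild-type replicate 2. Centred, Psmd8 was higher by 0.92 (adjusted p 1.5e-16), the largest centred value among the members.

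Psmd13, another structural lid subunit, was the lowest of the lid by its strongest region, with 45.9, 54.1 and 49.2 normalised reads in Cox10-/- against 108, 97.2 and 88.2 in wild type at chr7:140881962-140882307 (log2 -0.96, SE 0.16, adjusted p 7.1e-09). That region lies on the side of Sirt3, a mitochondrial deacetylase gene that starts 85 bases away on the opposite strand, so the signal cannot be assigned to either gene. A second region, inside Psmd13 at chr7:140882444-140882698, had 56.9, 39.5 and 37.1 normalised reads in Cox10-/- against 65.2, 58.9 and 52.4 in wild type. There the genotypes overlapped, with a log2 difference of -0.41 (SE 0.18, adjusted p 0.028), and the centred value of 0.45 was called higher (adjusted p 0.019), whereas that of the upstream region, -0.09, was not called. Psmd14, the deubiquitinase of the lid, and Psmd7, its partner, were at -0.65 and -0.75, and neither was called on the centred scale. Psmd11 had the widest region of the members and the highest level per region, with a mean of 420.2 ± 33.8 normalised reads in Cox10-/- and 637 ± 52.1 in wild type (SD, n = 3 each), a log2 difference of -0.60. Psmd12 was at -0.59 and Psmd6 at -0.89; of these 3 structural subunits, Psmd11 and Psmd12 were higher on the centred scale, by 0.27 and 0.28.

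**Figure D3:**
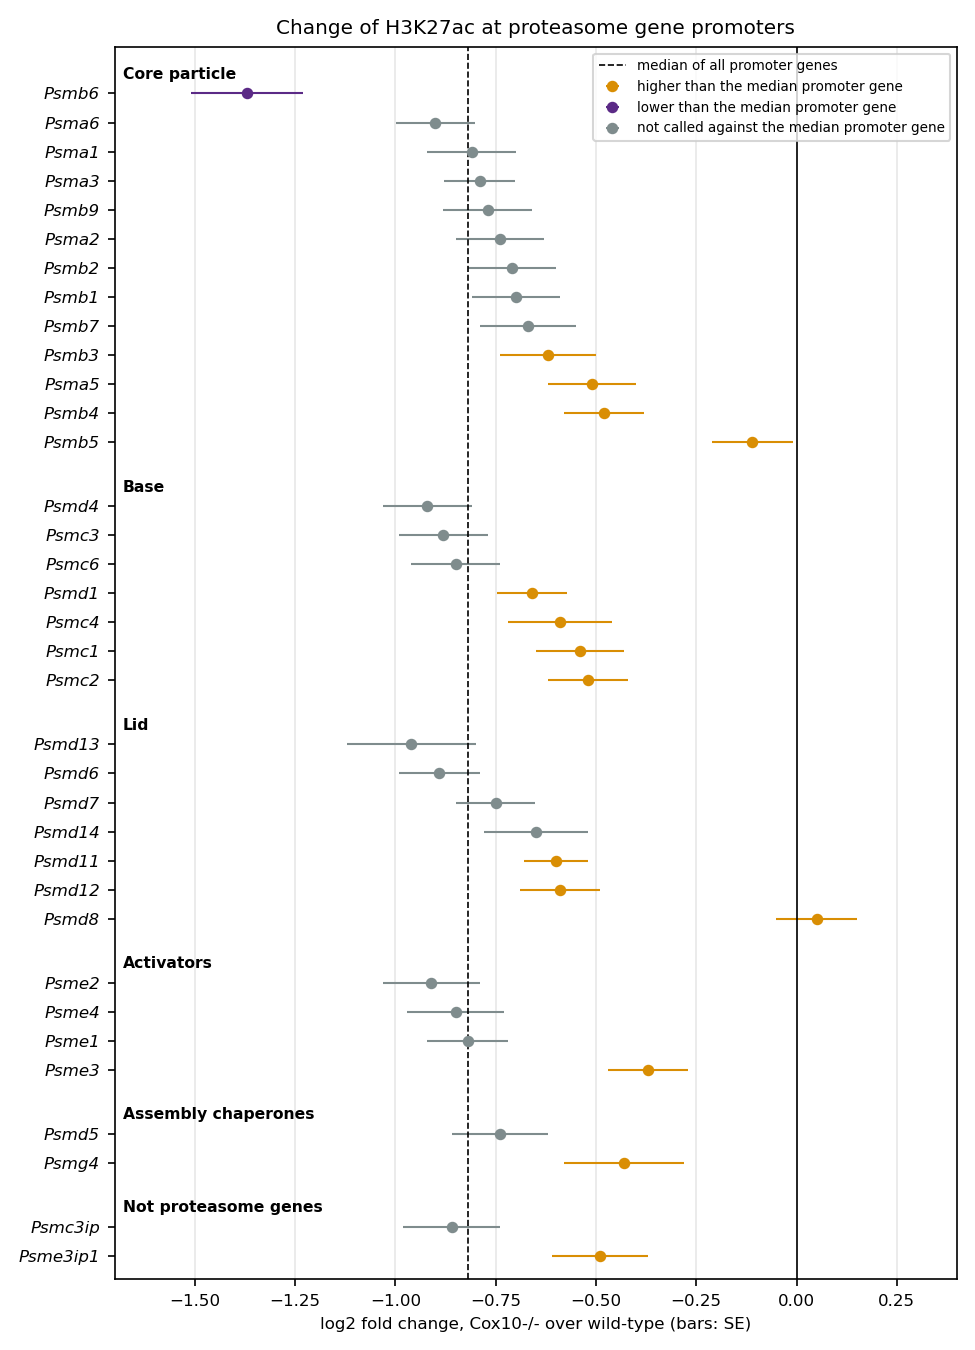
Log2 difference in promoter H3K27ac, Cox10-/- over wild type, for each gene by role, with bars of 1 SE and a dashed line at the median of all promoter genes, -0.82. Orange points were higher and the purple point, Psmb6, lower than the median promoter gene on the centred scale; grey points were not called. Psmb5 at -0.11 and Psmd8 at 0.05 stand apart from the rest on the right.

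The activators cap the core particle in place of the regulatory particle, and all 4 promoters were lower in Cox10-/-. Psme1 and Psme2 encode the ring that immune signals induce. Psme1, at chr14:55578026-55579083, had 214, 199 and 145 normalised reads in Cox10-/- against 333, 351 and 291 in wild type (log2 -0.82, SE 0.10, adjusted p 1.1e-13). Psme2, at chr14:55591163-55591568, had 89.2, 111 and 104 normalised reads in Cox10-/- against 197, 189 and 187 in wild type (log2 -0.91, SE 0.12, adjusted p 1.3e-12). Both were without overlap and close to the median promoter gene, at 0.05 and -0.05 on the centred scale. Per length Psme2 was the strongest of the members in wild type, at 470.0 normalised reads per kb, and had 249 in Cox10-/-. This region lies between the starts of Psme2 and Rnf31, which is 641 bases away on the opposite strand, so the signal cannot be assigned to either gene. The region downstream of the Psme2 start had 269.9 normalised reads per kb in wild type and 129 in Cox10-/-.

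Psme3 encodes the nuclear activator ring. Its region over the start, at chr11:101315607-101316773, had 204, 232 and 211 normalised reads in Cox10-/- against 275, 257 and 305 in wild type. The libraries did not overlap, and the difference was 1.29-fold (log2 -0.37, SE 0.099, adjusted p 0.00025), the smallest among the 33 promoters called lower; centred, it was higher by 0.49 (adjusted p 1.3e-07). Psme4 encodes a large single-chain activator, and at chr11:30771858-30772756 it had 138, 136 and 85.6 normalised reads in Cox10-/- against 229, 205 and 202 in wild type (log2 -0.85, SE 0.12, adjusted p 1.7e-11). Its Cox10-/- replicate 3 was well below the other two libraries of that genotype, and the genotypes still did not overlap.

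The assembly chaperone genes were both lower in Cox10-/-. Psmd5, which helps assemble the base, had 119.8, 100.1 and 100 normalised reads in Cox10-/- against 174, 184 and 178 in wild type at chr2:34871099-34871763 (log2 -0.74, SE 0.12, adjusted p 4.2e-09). Psmg4, which helps assemble the core, had 68.0, 76.7 and 62.9 normalised reads in Cox10-/- against 98.4, 82.2 and 101 in wild type at chr13:34162956-34163228 (log2 -0.43, SE 0.15, adjusted p 0.0042). The genotypes did not overlap at either of these regions, and Psmg4 was higher on the centred scale by 0.43 (adjusted p 0.0043). At a second, upstream region of Psmg4 the genotypes overlapped, with 53.5, 39.5 and 35.6 normalised reads in Cox10-/- against 46.6, 56.2 and 42.2 in wild type, and the log2 difference of -0.18 was not called (adjusted p 0.37). Of Psmc3ip and Psme3ip1, which are not proteasome subunits, Psmc3ip had 96.9, 120.3 and 97.7 normalised reads in Cox10-/- against 205, 178 and 188 in wild type (log2 -0.86, SE 0.12, adjusted p 1.8e-11). Psme3ip1 had 142, 123 and 119 normalised reads in Cox10-/- against 192, 158 and 192 in wild type (log2 -0.49, SE 0.12, adjusted p 4.8e-05). The values of these genes lay within the range of the proteasome genes.

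Several proteasome genes carried H3K27ac on both sides of the start, and at some of them the sides differed. Regions upstream and downstream of the start could be compared in 11 genes, by limma on the log2 ratio of the upstream to the downstream region over 2352 genes with both, a comparison chosen after seeing the data. The upstream region was the more reduced in Cox10-/- at 4 genes and the less reduced at 1, where 15.9% and 11.4% of the 2352 genes were called in those directions. At Psmd4 the log2 difference was -1.66 upstream and -0.92 downstream (adjusted p of the contrast 0.0089). At Psmb6 it was -1.37 upstream and -0.67 downstream (adjusted p 0.014), and at Psmb3 -1.23 upstream and -0.62 downstream (adjusted p 0.013). Psma3 followed with -1.27 and -0.79 (adjusted p 0.031).

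Psmb9 went the other way, at -0.77 upstream, on the side of Tap1, and -1.40 downstream, inside its own gene (contrast 0.64, SE 0.18, adjusted p 0.0037). Its downstream region, at chr17:34186962-34187306, had 46.7, 41.2 and 32.6 normalised reads in Cox10-/- against 124, 104 and 94.6 in wild type, without overlap. The contrast was not called at Psma6, Psmd5, Psme2, Psme4 and Psmg4, nor at Psmd13, where it was -0.55 (SE 0.25, adjusted p 0.088). The median contrast was -0.06 in the 11 genes and -0.06 in all 2352. The count of 4 fell to 2 without Cox10-/- replicate 1, where Psma3 and Psmd4 were no longer called, and to 2 without wild-type replicate 3, where Psma3 and Psmb3 were not. Psma3 was also lost without wild-type replicate 1 and with a pseudocount of 5 (-0.37, adjusted p 0.084), which left a count of 3, and Psmb3 without Cox10-/- replicate 2.

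**Figure D4:**
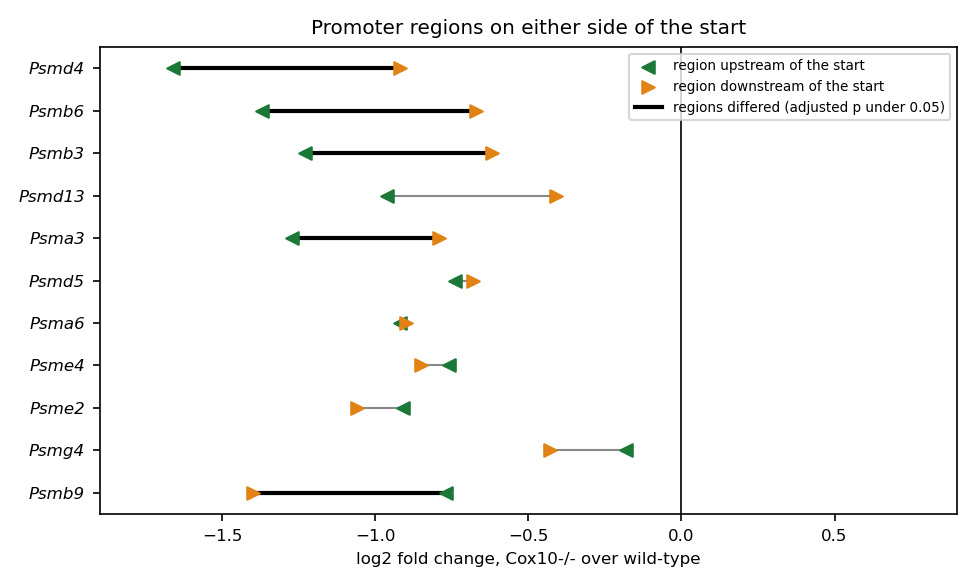
Log2 difference in H3K27ac, Cox10-/- over wild type, of the promoter region upstream (green, pointing left) and downstream (orange, pointing right) of the start, for the 11 genes with both. Black bars join the sides of the 5 genes whose sides differed at an adjusted p under 0.05: upstream was lower at Psmd4, Psmb6, Psmb3 and Psma3 and higher at Psmb9.

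Starts that face a neighbour within 1 kb on the opposite strand were found at 5 of the 30 genes with a RefSeq window. The strongest promoter region named for the neighbour had a log2 difference of -0.94 at Mrpl32, a mitochondrial ribosome gene 205 bases from Psma2, against -0.74 at Psma2. It was -1.84 at Sirt3, against -0.96 at Psmd13, and -1.19 at Rspry1, 215 bases from Psme3ip1, against -0.49 at Psme3ip1. At Rnf31, a ubiquitin ligase gene 641 bases from Psme2, it was -0.80, against -0.91 at Psme2. The values of Psmd13 and Psme2 here are those of their upstream regions, which themselves lie on the side of Sirt3 and Rnf31. No region was named for Tap1 beside Psmb9.

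Regions named for proteasome genes but lying more than 1 kb from a start had a larger median difference than the promoters. Of 20 such regions, named for 7 genes, 19 were lower and 0 higher in Cox10-/-, where 83.2% of all 20407 such regions were lower and 6.96% higher. None was higher at an unadjusted p under 0.05, or by edgeR or DESeq2 run with the deposited size factors. Their median log2 difference was -1.72, or 3.28-fold lower, against -1.28, or 2.43-fold lower, over all such regions. Centred, 16 were lower and 1 higher, against 52.8% and 21.3% of such regions. The libraries of the genotypes did not overlap in 19 of the 20, against 89.5% of such regions. The table names such a region after its closest gene, on which it may not act, and neighbouring regions are not independent.

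Psma6 held 9 of the 20. Within its last intron, intron 6 of 6, 4 regions centred 16.0 to 17.9 kb from the start had log2 differences between -1.92 and -1.45. Beyond the gene, 4 intergenic regions centred 27.2 to 29.5 kb from the start were between -2.95 and -1.76. The lowest of them, at chr12:55428101-55428531, had 12.7, 8.88 and 12.1 normalised reads in Cox10-/- against 106, 84.9 and 88.2 in wild type, a 7.73-fold difference (log2 -2.95, SE 0.23, adjusted p 1.2e-27) and the largest of the 68 regions. The last region, 48.1 kb from the start at chr12:55446792-55447055, had 47.6, 33.9 and 26.5 normalised reads in Cox10-/- against 46.6, 41.1 and 43.5 in wild type. There the genotypes overlapped (log2 -0.31, SE 0.21, adjusted p 0.15), although it was called lower without Cox10-/- replicate 1 (-0.53, adjusted p 0.032), and its centred 0.55 (adjusted p 0.013) was 0.37 (adjusted p 0.16) without that library. The 2 promoter regions of Psma6 were at -0.92 and -0.90, so all 8 of the nearer regions away from its start were lower than its promoter.

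**Figure D5:**
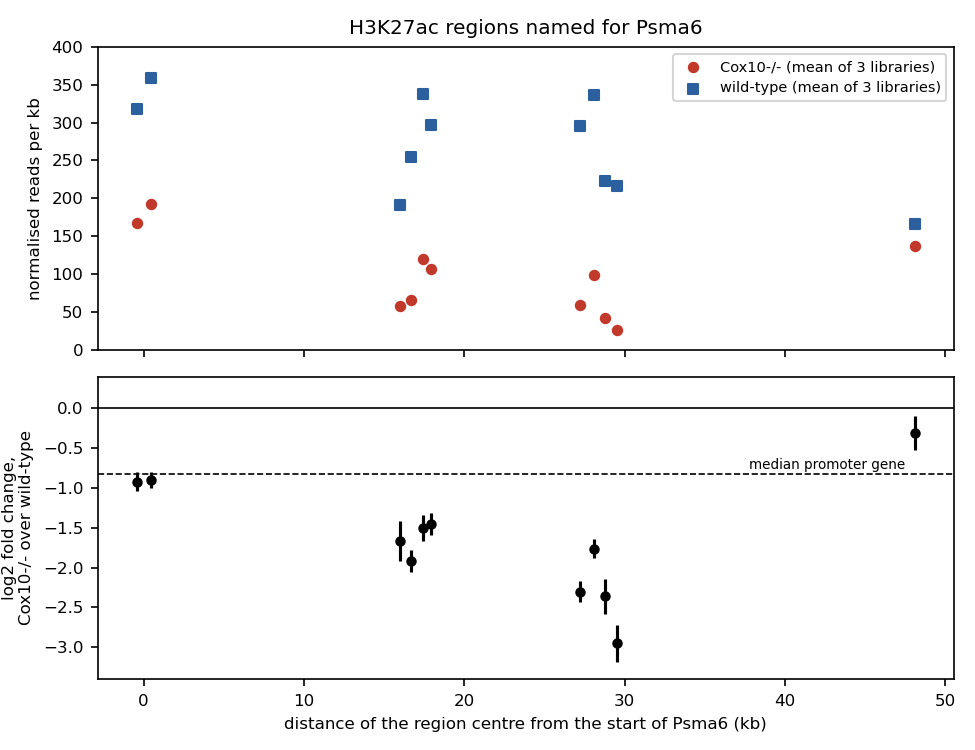
H3K27ac regions named for Psma6 by distance of their centre from the start, in kb. The upper panel gives mean normalised reads per kb in Cox10-/- (red circles) and wild type (blue squares, n = 3 each); the lower panel gives the log2 difference with bars of 1 SE and a dashed line at the median promoter gene. Regions at 16.0 to 17.9 kb and 27.2 to 29.5 kb lie below the promoter regions, and the region at 48.1 kb lies above them.

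The other distant regions followed the same direction. Psmb1 had 3 small intergenic regions 18.7 to 19.4 kb from the gene body, between -2.28 and -2.01, while its promoter was at -0.70. The middle one, at chr17:15456473-15456677, had 8.50, 12.1 and 9.85 normalised reads in Cox10-/- against 53.2, 53.4 and 51.1 in wild type. Psma1 had 2 regions 15.5 and 16.4 kb from the gene body, at -1.79 and -1.33, against -0.81 at its promoter. The first of these, at chr7:114291588-114292467, had 68.0, 68.6 and 67.4 normalised reads in Cox10-/- against 226, 248 and 239 in wild type. In both places the genotypes were well separated.

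Inside Psmb7 a region that the table annotates as promoter lies 20.1 kb from the RefSeq start, at chr2:38623482-38623861, and had 11.9, 18.6 and 18.2 normalised reads in Cox10-/- against 94.5, 103 and 88.2 in wild type (log2 -2.50, SE 0.21, adjusted p 4.2e-25). It and a neighbouring region at -2.26 differed far more than the Psmb7 start at -0.67, and a weak region in intron 6 of 7 was at -0.58 (adjusted p 0.013), or -0.39 (adjusted p 0.14) without wild-type replicate 2. Psmc4 had 2 regions 2.88 and 3.78 kb from its gene body, at -1.47 and -1.33, against -0.59 at its promoter. The further region of Psmb6 was at -1.17 and that of Psmg4 at -1.32.

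The genes around the proteasome were read from 6 lists of partners, 87 gene symbols in all, of which 65 had a promoter region. The symbols without a region include Shfm1 and Ufd1l, older names of the listed Sem1 and Ufd1. On the deposited scale 64 of the 65 were lower and 0 higher in Cox10-/-, with a median of -0.73; on the centred scale 28 were higher, 7 lower and 30 not called, with a median of 0.13. Of all promoter genes 93.8% were lower on the deposited scale, and 27.5% were higher and 24.4% lower on the centred scale, shares against which each list below is to be read. The exception on the deposited scale was Zfand2a, a stress-induced protein that joins the proteasome. It had 137, 146 and 130.3 normalised reads in Cox10-/- against 121, 125 and 106 in wild type, a log2 difference of 0.23 (SE 0.12, adjusted p 0.065), and its centred value was 1.10 (adjusted p 2.7e-15). Among shuttle factors, which carry ubiquitinated proteins to the proteasome, 4 of 10 were higher on the centred scale, with Nub1 lowest of the 4 at 0.43, and 0 lower.

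Of other proteasome-bound proteins 4 of 11 were higher on the centred scale and 0 lower, between Pomp, the maturation chaperone of the core, at 0.22 and Adrm1, a ubiquitin receptor, at 0.31. Of regulators of proteasome gene transcription 5 of 10 were higher and 1 lower, between Maff, a small Maf partner of the Nfe2l factors, at 0.53 and Nfyb, a CCAAT-binding subunit, at -0.29. Nfe2l1 had 121, 131 and 119.7 normalised reads in Cox10-/- against 221, 207 and 224 in wild type (log2 -0.81, SE 0.11, adjusted p 1.9e-11) and was not called on the centred scale at 0.06. Nfe2l2, the oxidative stress factor, had 401, 404 and 361 normalised reads in Cox10-/- against 495, 583 and 566 in wild type (log2 -0.49, adjusted p 1.7e-08), and centred it was higher by 0.37.

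Of the segregase complex, which extracts ubiquitinated proteins, 6 of 10 genes were higher on the centred scale and 0 lower, between its cofactor Nploc4 at 0.17 and the ATPase Vcp at 0.39. Of ubiquitin and its activating and conjugating enzymes 7 of 13 were higher and 1 lower. The higher genes reached 0.42 at Uba6, a ubiquitin-activating enzyme. The lower gene was Ube2c, which serves the degradation of mitotic regulators, with 28.0, 19.4 and 22.0 normalised reads in Cox10-/- against 139.7, 136 and 129 in wild type, a 5.69-fold difference (log2 -2.51, adjusted p 1.3e-32; centred -1.64). Of antigen processing partners 2 of 11 were higher and 5 lower, between Canx, an endoplasmic reticulum chaperone, at 0.29 and Stat2, an interferon signalling factor, at -0.59.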

How the data were processed

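H3K27ac was measured by chromatin immunoprecipitation and sequencing in 6 libraries, 3 per genotype, and the inputs, also 6, stayed out. The authors deposited 1 table of regions with a normalised signal per library, together with their own log2 fold changes with standard errors, p-values and a test score (statistic), which are not reported here. Multiplied by a size factor for its library, every signal value (100.0%) gave whole reads to within 0.01. The protocols in the labels mention spike-in chromatin; the sources used here do not say whether the factors derive from it. Per the submitters' processing notes, the tools were BWA 0.7.5, MACS and deepTools 3.5.0, with no role stated, and coordinates are on mm10.

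Of 36446 regions 59 repeats were dropped. Each of 9663 promoter genes was represented by its strongest region within 1 kb of a start. limma 3.58.1 in R 4.3.3 was fitted with a trend to log2(signal + 1) over all 36387 regions, with no filter, genotype as the only term and Benjamini-Hochberg adjustment; fold differences are on that scale. The fit was repeated after centring each library on its median promoter gene. edgeR 4.0.16 and DESeq2 1.42.0 were run on the recovered read counts of the deposited table as alternatives. Beside the deposited scale they used the deposited size factors, and beside the centred scale their own scaling. The limma, edgeR and DESeq2 fits were first run on simulated data. Single ratios had exact permutation tests. Among the partner lists, the genes named were those with the lowest and highest centred difference among called genes, plus Nfe2l1, Nfe2l2 and the single gene not called lower; of the members, the catalytic subunits, activators and the extremes of each class have all values printed. The members, lists and tests were chosen with earlier results of these data known. 1 gene that fits the name rule is not reported here. Sequences are from RefSeq (GRCm38.p6); region coordinates are as in the table, whose counting base is not stated.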

Additional observations from a re-analysis of the deposited data

How the results depend on the processing

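On the deposited scale the promoter counts of 33 lower and 0 higher were the same under pseudocounts of 0.5 and 5, a mean signal of at least 10, an adjusted p under 0.01 and averaging promoter regions. They were also the same by edgeR and DESeq2 with the deposited size factors kept. With each library left out the lower count stayed at 33 with medians of -0.74 to -0.65. The centred counts depended on the centre: higher promoters numbered 26 with edgeR's TMM, 23 with DESeq2's own size factors and 26 with the median of all regions, each with a median of 0.34, against 14 and 0.15. Lower promoters numbered 0, against 1, with DESeq2's own size factors and with averaged promoter regions. Shares of all promoter genes under those alternatives are not given here, so the counts cannot be set against promoters at large. With a library left out, centred higher promoters numbered 12 to 16, distant regions called lower 18 to 20 on the deposited and 15 to 17 on the centred scale, and distant regions called higher on the centred scale 0 to 1, with 0 also at an adjusted p under 0.01. The centred median of distant regions was -0.66 with the median of all regions as centre, against -0.85.

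The Psmb9 to Psmb6 difference of 0.60 ran from 0.51 to 0.70 with a library left out and was -0.74 in the downstream regions. The Psme1 to Psme3 difference ran from -0.60 to -0.29. Genes whose upstream region was the more reduced numbered 2 to 4, and 1 went the other way throughout. The causes of these changes were not tested.

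Values near 0 changed sign without being called in either fit. Psmd8 on the deposited scale ran from -0.04 to 0.14 with a library left out. On the centred scale Psma1 ran from -0.00 to 0.16, Psma6 from -0.08 to 0.00, Psmc3 from -0.09 to 0.05, Psmc6 from -0.03 to 0.04, Psmc3ip from -0.07 to 0.09, Psmd4 from -0.10 to 0.03, Psmd6 from -0.07 to 0.04, Psme1 from -0.04 to 0.17, Psme2 from -0.12 to 0.07 and Psme4 from -0.07 to 0.19. With TMM, DESeq2's factors and the median of all regions, in that order, Psma6 was 0.15, 0.16 and 0.15, Psmc3 0.17, 0.17 and 0.18, Psmd4 0.13, 0.14 and 0.14, Psmd6 0.17, 0.17 and 0.17, Psmd13 0.08, 0.09 and 0.09, and Psme2 0.14, 0.15 and 0.14. With averaged promoter regions Psmb9 was -0.05, Psmc3 0.00 and Psmd13 0.16. Psmb7, at 0.20 by its strongest region, was -0.17 when averaged. That average includes the region annotated as promoter 20.1 kb from the RefSeq start, which was at -2.50 on the deposited scale. The upstream to downstream contrast ran from -0.13 to 0.07 at Psma6 and from -0.13 to 0.21 at Psme4 with a library left out.

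With the replicate number as a block the counts were again 33 lower promoters, and 14 higher and 1 lower on the centred scale, and both within-library differences had an exact sign-flip p of 0.250, the smallest possible. Libraries of different genotype with the same number did not deviate together, with correlations of -0.00, 0.01 and 0.01. Libraries of the same genotype differed by little more than read sampling, so these correlations cannot decide whether the numbers pair them. The ratio of Psmb10 to Psmb7 was planned and not run, as Psmb10 had no region among those used here. Each call rests on 3 libraries per genotype, and regions of few reads limit the smaller differences.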
